A study of Homo sapiens with 21 samples.

Results

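The keratin genes examined here were the 55 protein-coding genes of chromosomes 12 and 17 whose symbol is KRT followed by a number and at most 1 letter, out of 19970 protein-coding genes placed on the autosomes and X. Keratin-associated protein genes and pseudogenes were left out. The 27 genes of chromosome 12 lay in 1 window and the 28 genes of chromosome 17 in 2, each window running 50 kb beyond the outer gene bodies. In hg38 these windows were chr12:52118996-53002906, chr17:40604665-41037135 and chr17:41296092-41674575, with 27, 12 and 16 genes. A region belonged to a window when its midpoint lay inside, and each region was counted once.

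The data were lists of enriched regions, deposited for 15 of 21 samples. The cells were 4 established melanoma lines of human origin, namely A375, SKMEL-147, SKMEL-5 and 501mel. ATAC, which marks open chromatin, was listed for 501mel, SKMEL-5, SKMEL-147 and A375-GFP, and K27ac, the histone H3 acetylation of active enhancers and promoters, for the same 4. CTCF, an insulator and loop-anchor protein, was listed for 501mel and SKMEL-5, and HA-tagged HOXD13, a homeobox factor of limb and skeletal patterning, for A375-HOXD13. K27ac was also listed for A375-shNTC, in 2 replicates, and for A375 with the hairpins shH2 and shH3, 1 library each. The labels do not name the hairpins' target. shNTC is read as the non-targeting hairpin. All samples came from cultures grown for 72 h with or without 1 µg/ml doxycycline as the inducer, and the labels do not say which received it. Another 6 samples (IgG, and HA in A375-GFP cells) were not analysed here, so the level of HA signal without the tagged factor is unknown. Apart from the shNTC pair every line and assay had 1 library, so no difference below has a replicate check and no test was run. Nothing in the labels says whether the shNTC pair came from separate cultures.

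Keratins are the intermediate filament proteins of epithelia. A type I keratin pairs with a type II keratin, and the pairs mark tissues: KRT8 with KRT18 in simple epithelia, KRT5 with KRT14 in the basal epidermis, KRT1 with KRT10 above it, KRT6 with KRT16 and KRT17 in wounded skin and appendages, and the hair keratins in the hair shaft. The type II genes and the type I gene KRT18 form the cluster of chromosome 12, and the other type I genes that of chromosome 17. Melanocytes come from the neural crest and use vimentin filaments, so melanoma cells are not known for a full keratin programme.

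The promoter sequences that the regions turn on most are shown first. RefSeq promoter entries (GRCh38.p14, 250 bases before to 50 after the start) matched 34 of the 55 keratins, and HOXD13-HA regions overlapped 2 of these 34, those of KRT84 and KRT36, both on the minus strand. Capitals mark TTTATTG or its reverse complement CAATAAA, a core known for HOX13 paralogs. The KRT84 entry is chr12:52385603-52385902, a start inside the RefSeq gene body, and the KRT36 entry is chr17:41489861-41490160.
KRT84: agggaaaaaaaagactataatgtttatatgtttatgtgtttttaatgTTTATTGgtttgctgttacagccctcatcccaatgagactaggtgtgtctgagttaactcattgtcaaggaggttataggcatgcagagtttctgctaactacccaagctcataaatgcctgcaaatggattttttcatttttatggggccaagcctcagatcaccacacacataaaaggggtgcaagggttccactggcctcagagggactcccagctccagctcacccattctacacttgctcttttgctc
KRT36: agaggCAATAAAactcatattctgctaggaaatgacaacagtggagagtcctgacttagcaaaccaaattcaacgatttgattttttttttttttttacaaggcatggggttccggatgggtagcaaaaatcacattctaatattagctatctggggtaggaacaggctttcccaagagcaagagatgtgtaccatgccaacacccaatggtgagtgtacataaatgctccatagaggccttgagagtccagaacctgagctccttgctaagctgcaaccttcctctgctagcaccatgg
The third sequence is the KRT8 entry, the 1 keratin promoter of the 34 that a K27ac region overlapped in any line. It is chr12:52926420-52926719 on the minus strand, a start inside the RefSeq gene body, with the 50 bases after the start in capitals.
KRT8: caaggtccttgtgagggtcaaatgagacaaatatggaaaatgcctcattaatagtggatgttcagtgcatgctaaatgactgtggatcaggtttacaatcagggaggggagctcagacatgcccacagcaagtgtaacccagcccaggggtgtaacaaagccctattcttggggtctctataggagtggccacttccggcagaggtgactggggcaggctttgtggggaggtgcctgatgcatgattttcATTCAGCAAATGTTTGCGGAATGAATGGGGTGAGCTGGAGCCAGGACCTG
The HOXD13-HA summit at KRT84 fell inside the printed stretch, at base 141 from its 5′ end, and TTTATTG began at base 48. At KRT36 the summit lay just outside it, 265 bp before the start. Searched on both strands, TTTATTG was present in 5 of the 34 keratin promoters (14.7%) and in 2.83% of all 15812 promoters of the table. TTTACGA, the other HOX13 core searched and not overlapping the first, was in 0 of 34 keratin promoters and in 0.531% of all. A match describes the letters only. The KRT8 entry was overlapped by ATAC and K27ac regions in SKMEL-147 and A375-GFP and by K27ac regions in all 4 libraries of the silencing series, and by none in 501mel or SKMEL-5.

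Across the windows, acetylation divided the lines. K27ac regions numbered 15 in 501mel and 14 in SKMEL-5, against 80 in SKMEL-147 and 116 in A375-GFP. Only 1, 6, 17 and 29 of them, in the same order, reached a −log10 q of 10. Per Mb of window the full lists gave 8.85 and 8.26 in the first 2 lines, and 47.2 and 68.4 in the others. The same windows drawn around every protein-coding gene held 26.0, 19.3, 25.4 and 67.5 regions per Mb in that order. 501mel and SKMEL-5 were thus sparser over the keratins than around genes at large, SKMEL-147 was denser, and A375-GFP was about even. Open chromatin did not divide the lines in this way: the windows held 94 ATAC regions in 501mel, 59 in SKMEL-5, 167 in SKMEL-147 and 117 in A375-GFP. Those were 55.5, 34.8, 98.5 and 69.0 per Mb, each above the 45.3, 24.5, 66.6 and 48.9 around all genes. Of the ATAC regions, 4.26% overlapped K27ac of the same line in 501mel, where the whole list gave 18.5%. The shares were 18.6% against 41.3% in SKMEL-5, 23.4% against 19.1% in SKMEL-147 and 43.6% against 37.3% in A375-GFP. Read counts are not part of the lists, and the depth behind each is unknown.

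The strongest regions of each list in the windows were often the same places. In ATAC, the top 3 by fold were near KRT23 (22.4 and 22.1) and KRT39 (21.4) in 501mel, near KRT80 (14.9), KRT8 (14.4) and KRT83 (13.2) in SKMEL-5, and near KRT80 (15.7), KRT10 (15.5) and KRT83 (14.5) in A375-GFP. SKMEL-147 had its top 3 near KRT23 (31.5), in SMARCE1 (29.6) and in the hair keratin gene KRT32 (28.6). SMARCE1, a chromatin remodelling subunit, is no keratin but lies in the window. K27ac near the higher-coordinate edge of its body was listed in all 8 K27ac lists. The folds there were 5.26 in 501mel, 15.3 in SKMEL-5, 5.77 in SKMEL-147, 32.9 in A375-GFP, 72.5 and 62.7 in shNTC, 24.2 with shH2 and 41.8 with shH3, the highest of the window regions in A375-GFP, shNTC and shH3. 501mel and SKMEL-5 thus listed acetylation at this gene, beside keratins where they listed none.

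**Figure D1:**
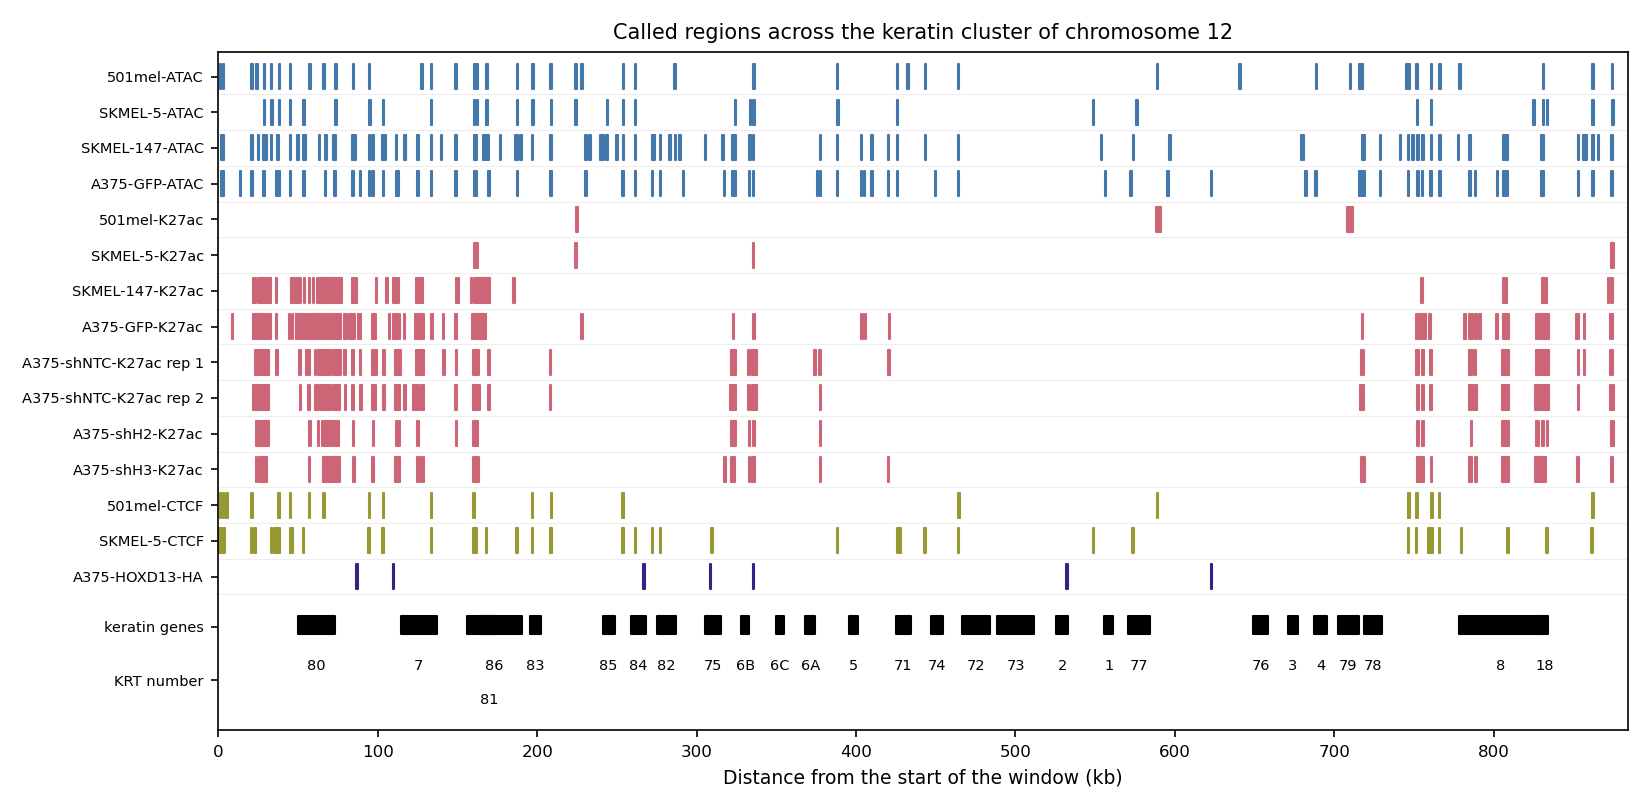
Called regions of the 15 lists (rows) across the chromosome 12 window, in kb from the window's start, with the 27 keratin bodies as black bars and their KRT numbers below. Acetylated regions fill both ends, around KRT80 to KRT86 and KRT8/KRT18, in SKMEL-147 and all A375 libraries, and are few in 501mel (6) and SKMEL-5 (5). Regions under 900 bp are drawn 900 bp wide so that they can be seen.

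**Figure D2:**
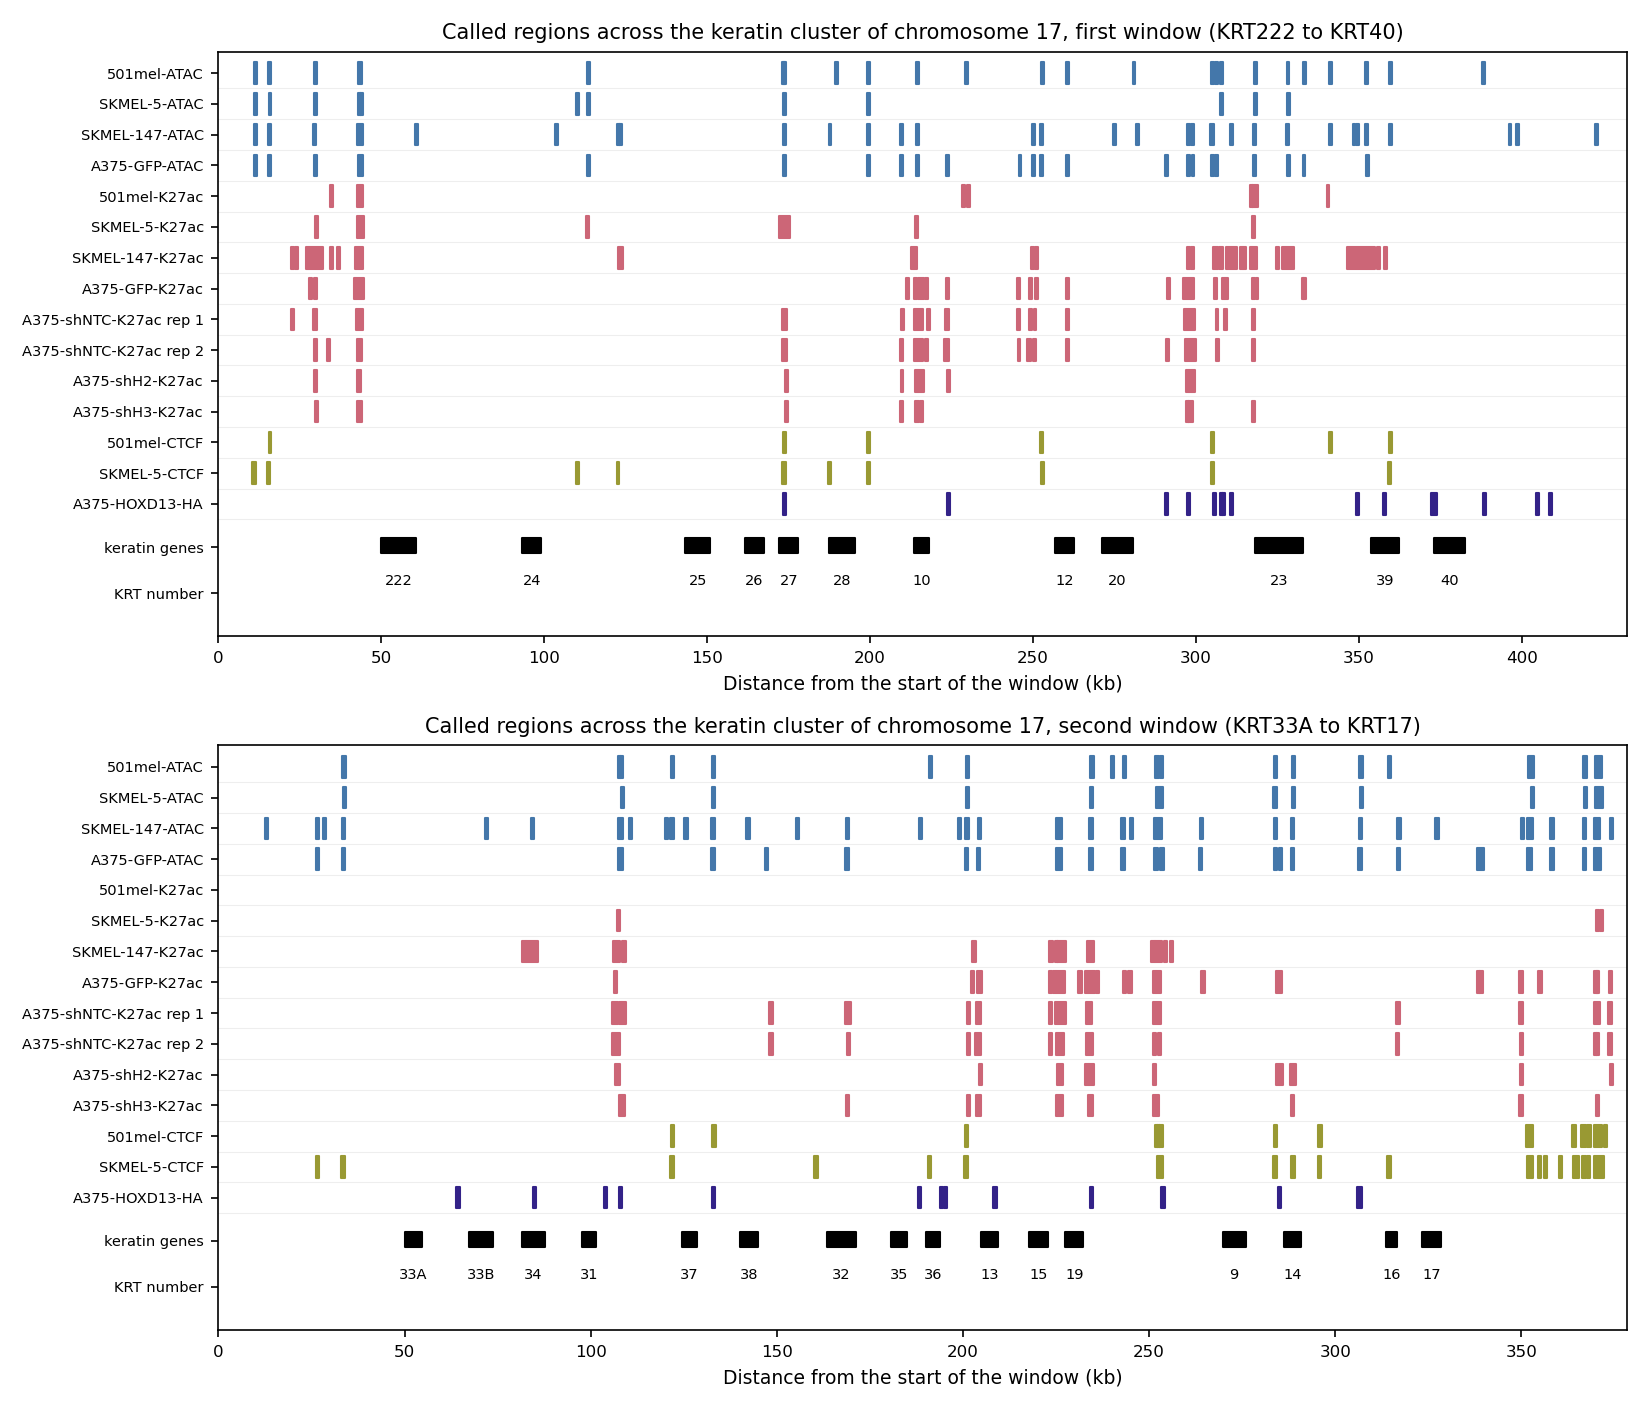
The same for the 2 windows of chromosome 17, with 12 keratin genes above and 16 below. The HOXD13-HA row holds 28 regions here and 7 on chromosome 12.

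Few keratins carried acetylation at the gene. A K27ac region lay in the body or within 2 kb of 2 of 55 keratins in 501mel (3.64%, 95% Wilson interval 1.00 to 12.3%), where 42.1% of all protein-coding genes had one. The count was 4 in SKMEL-5 (7.27%, 2.86 to 17.3%) against 57.9% of all genes, 12 in SKMEL-147 (21.8%, 12.9 to 34.4%) against 43.1%, and 14 in A375-GFP (25.5%, 15.8 to 38.3%) against 68.2%. Keratin bodies are short, with a median of 6.43 kb against 24.2 kb, and a long body collects more regions. Among genes with a body of 3 to 15 kb, 30.1, 46.2, 26.1 and 58.7% had a region in these 4 lists, and 4.17, 6.25, 16.7 and 20.8% of the 48 keratins of that size. Keratins therefore lay below the genes of like length as well in each of the 4 K27ac lists. The gap was smallest in SKMEL-147, where the interval of all 55 keratins, 12.9 to 34.4%, holds the 26.1%. That gap is thus within counting error. Within 50 kb of the body the counts were 19, 30, 35 and 48 of 55, against 67.0, 81.2, 72.0 and 84.5% of all genes. Wilson intervals cover counting error only, and neighbouring keratins share regions.

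Open chromatin lay near the body of more keratins, again below genes at large. It was found at 23 keratins in 501mel against 84.0% of all genes, 16 in SKMEL-5 against 76.8%, 35 in SKMEL-147 against 89.0% and 29 in A375-GFP against 87.5%. In the silencing series, K27ac near the body was listed for 18 keratins in each shNTC replicate against 71.2 and 70.2% of all genes. It was listed for 11 with shH2 against 56.1% and 14 with shH3 against 64.7%. Of the 55 keratins, 12 had no region of any of the 15 lists in the body or within 2 kb (21.8%, against 6.31% of all protein-coding genes). Among those with a body of 3 to 15 kb the shares were 20.8 and 9.05%. The 12 were KRT6C, KRT72, KRT73, KRT76, KRT3, KRT24, KRT25, KRT26, KRT33A, KRT31, KRT35 and KRT9. KRT31, a hair keratin, and KRT9, the keratin of palm and sole epidermis, are among them.

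**Figure D3:**
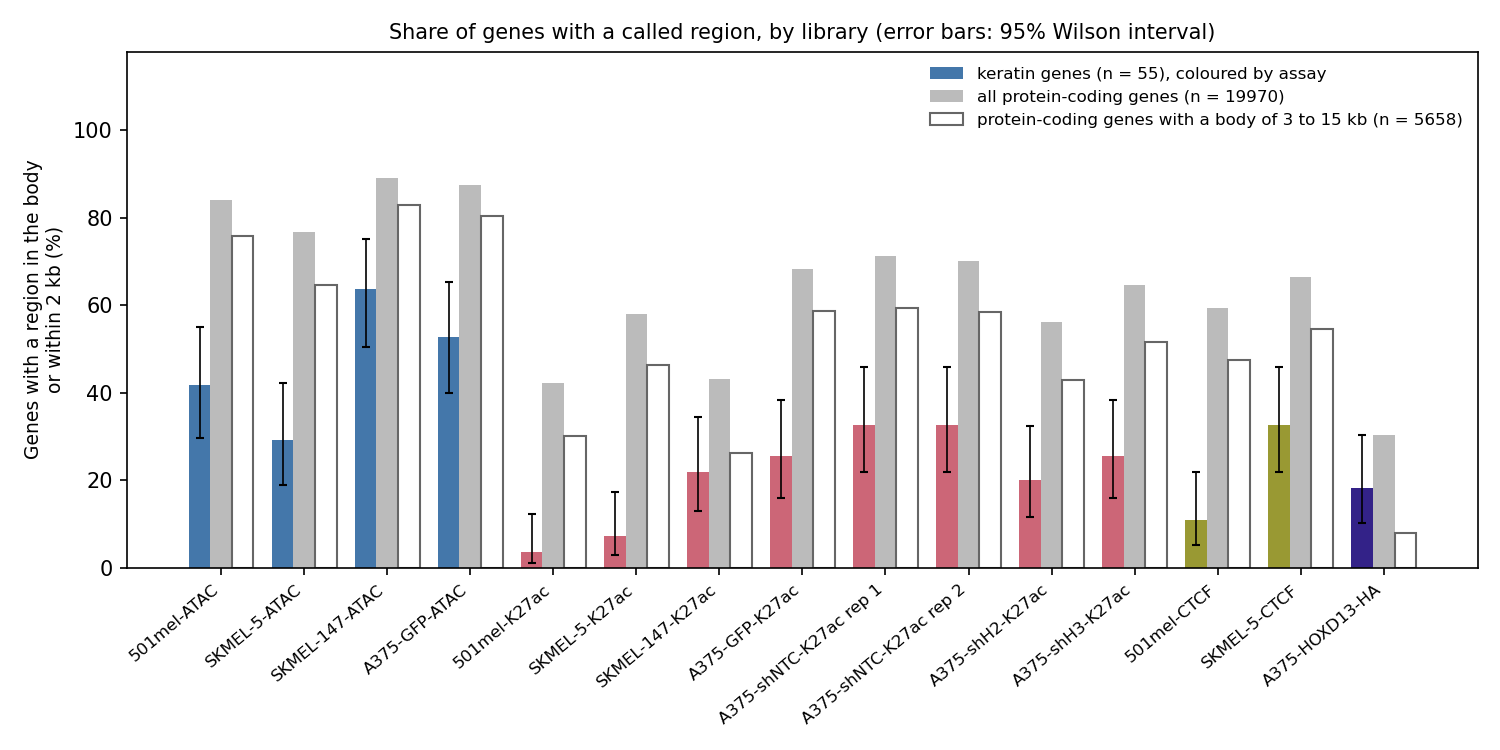
Share of genes with a region in the body or within 2 kb, in percent, by library: 55 keratins (coloured, with 95% Wilson intervals), all protein-coding genes (grey) and those with a body of 3 to 15 kb (open). Keratins lie below both backgrounds in the ATAC, K27ac and CTCF lists, and between them in the HOXD13-HA list. The coloured bars hold keratins of any length, of which 48 have a body of 3 to 15 kb.

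The simple epithelial keratins were acetylated at most of their members in SKMEL-147 and A375-GFP. Of the 7 genes of this group, KRT7, KRT8, KRT18, KRT19, KRT20, KRT23 and KRT80, 6 had K27ac at the gene in SKMEL-147 and the same number in A375-GFP, and 1 each in 501mel and SKMEL-5. That was 85.7% in SKMEL-147 and in A375-GFP, against 43.1 and 68.2% of all genes, and 14.3% in 501mel and SKMEL-5, against 42.1 and 57.9%. The group holds long bodies, with 52670 bp for KRT8, 23019 for KRT80 and 22611 for KRT7. It was not compared with genes of like length. Its members made up 6 of the 12 acetylated keratins of SKMEL-147 and 6 of the 14 of A375-GFP. KRT20, a keratin of gut epithelium, was the member without K27ac at the gene in any list. KRT7, KRT8, KRT18, KRT19, KRT80, KRT81 and KRT15 formed the class acetylated in SKMEL-147 and A375-GFP and in neither of the other lines. KRT23 was the 1 keratin acetylated in all 4 lines, and KRT86 and KRT10 were in the lists of SKMEL-5, SKMEL-147 and A375-GFP. KRT78, KRT12, KRT13 and KRT14 were acetylated in A375-GFP alone of the 4, KRT39 and KRT34 in SKMEL-147 alone, KRT27 in SKMEL-5 alone and KRT79 in 501mel alone. The other 37 keratins had no K27ac at the gene in these 4 lists.

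KRT80, a keratin tied to cell junctions, opens the chromosome 12 cluster. Its highest K27ac fold enrichment, the caller's ratio at the summit, was 12.6 in SKMEL-147, 16.2 in A375-GFP, 17.3 and 21.0 in the shNTC replicates, 14.5 with shH2 and 16.5 with shH3, and no region was listed in 501mel or SKMEL-5. Each fold belongs to its own list, and levels are not compared between lists. KRT80 was open in every line, with ATAC folds of 11.6, 10.2, 13.4 and 11.4 in 501mel, SKMEL-5, SKMEL-147 and A375-GFP. A broad domain beyond the gene, chr12:52140505-52151799, lay 22844 bp from KRT80 by its midpoint and was the strongest K27ac domain of the chromosome 12 window in each list that had it. Its folds were 22.9 in SKMEL-147, 23.4 in A375-GFP, 42.1 and 35.3 in shNTC, 33.8 with shH2 and 35.7 with shH3. It too was missing from the 501mel and SKMEL-5 lists.

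KRT7, the type II keratin of ducts and glands, had K27ac folds of 7.17 in SKMEL-147, 16.8 in A375-GFP, 23.5 and 18.2 in shNTC, 12.0 with shH2 and 15.9 with shH3. It was open in the 4 lines, with folds from 7.03 in 501mel to 20.7 in SKMEL-147. At the far end of the cluster lies the KRT8 and KRT18 pair, the first keratins made in the embryo. K27ac at KRT18 had folds of 5.32 in SKMEL-147, 13.5 in A375-GFP, 25.6 and 26.4 in shNTC, 10.1 with shH2 and 17.0 with shH3. The strongest such region, chr12:52947959-52953539 in shNTC, also counted for KRT8, because the RefSeq KRT8 body spans 52670 bp and overlaps KRT18. A separate region over the printed KRT8 promoter, chr12:52923983-52928859, had folds of 4.02 in SKMEL-147, 13.6 in A375-GFP, 18.0 and 21.7 in shNTC, 15.3 with shH2 and 14.7 with shH3. Neither 501mel nor SKMEL-5 listed K27ac at the pair, though both listed ATAC there, with KRT18 folds of 3.94 and 6.65.

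On chromosome 17 the simple keratin KRT19, the smallest keratin, had the same distribution. Its K27ac folds were 10.9 in SKMEL-147, 16.3 in A375-GFP, 22.8 and 22.6 in shNTC, 15.3 with shH2 and 25.6 with shH3. KRT19 was open in SKMEL-5 (6.22), SKMEL-147 (28.5) and A375-GFP (11.5) and had no ATAC region at the gene in 501mel. Its neighbour KRT15, a basal keratin of stem cell compartments, was acetylated at 4.26 in SKMEL-147, 3.58 in A375-GFP and 4.20 and 4.19 in shNTC, and had no ATAC region in any line. KRT23 was listed at 4.02 in 501mel, 7.86 in SKMEL-5, 11.7 in SKMEL-147, 6.04 in A375-GFP, 5.69 and 5.60 in shNTC and 3.82 with shH3, and was not listed with shH2. The stretch beside KRT23 and KRT39 held the strongest K27ac region of SKMEL-147 in all 3 windows, chr17:40951154-40959717, with a fold of 26.3. No other K27ac list had a region there. Another SKMEL-147 region near KRT23, chr17:40913787-40917281, had a fold of 18.0.

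**Figure D4:**
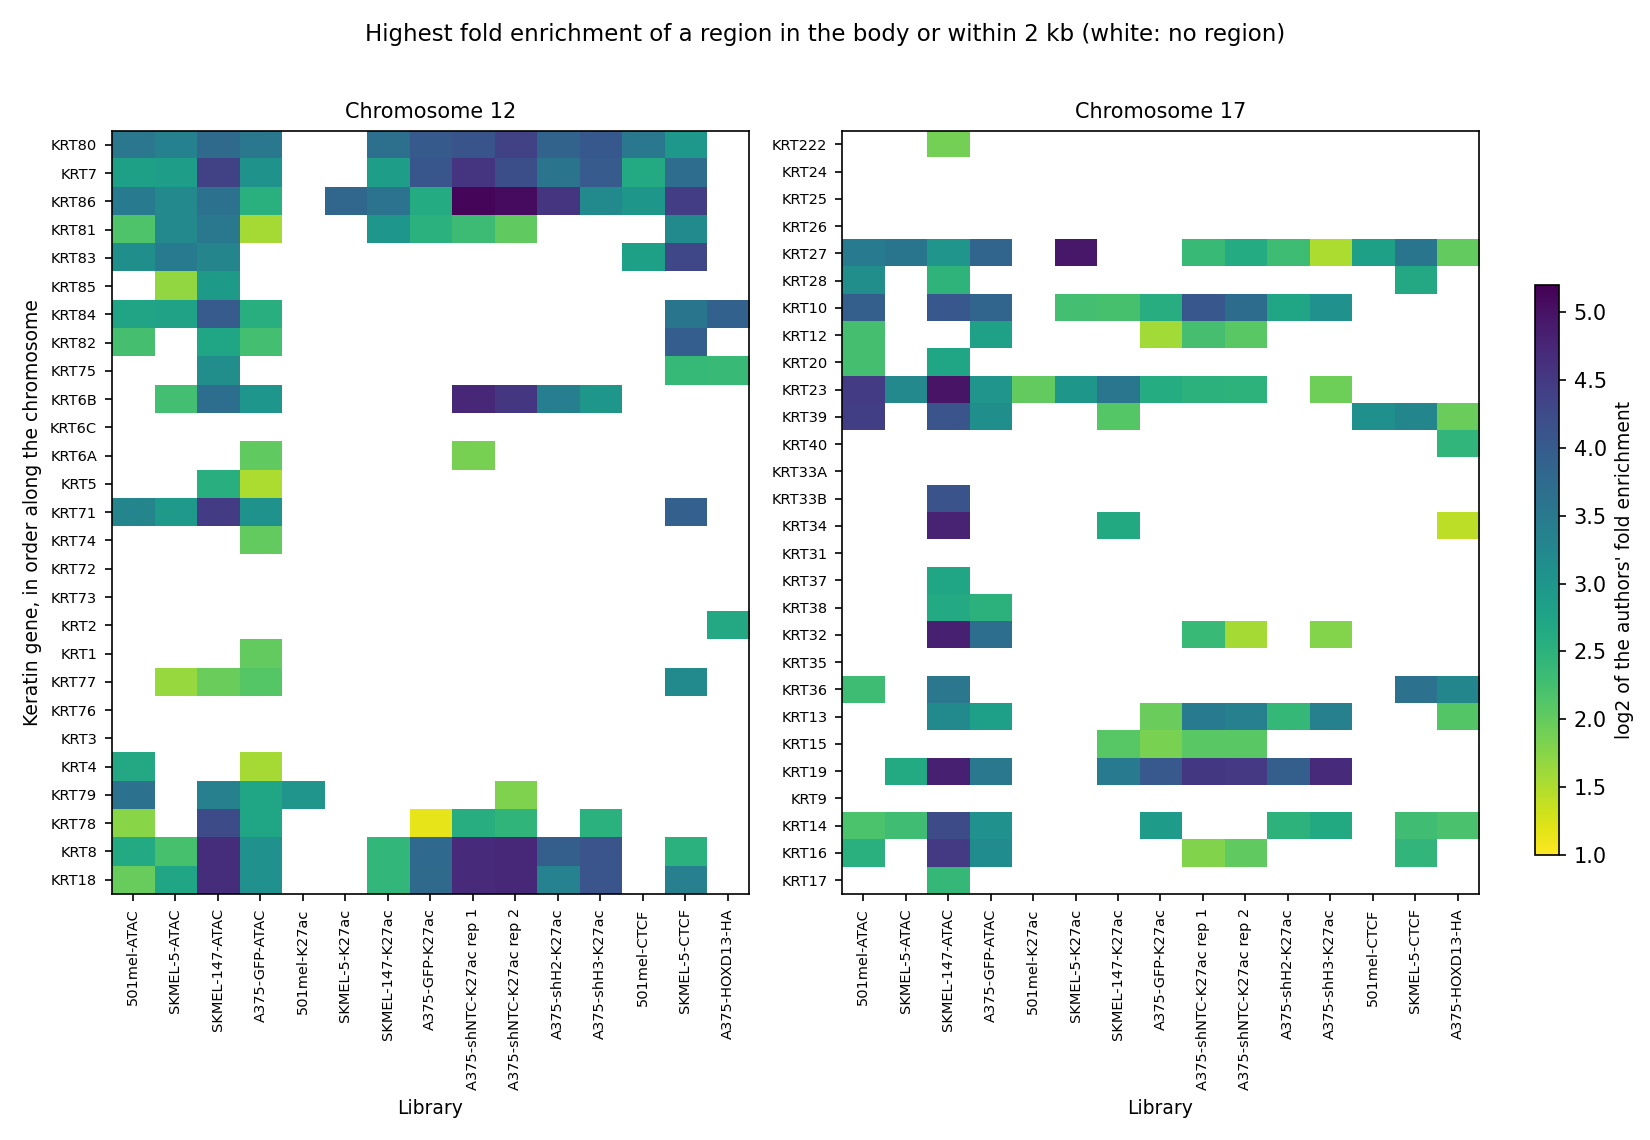
Highest fold enrichment (log2 of the authors' value) of a region in the body or within 2 kb, for the 55 keratins (rows, in chromosome order) in the 15 lists (columns). White means no region. KRT80, KRT7, KRT8, KRT18 and KRT19 are filled from SKMEL-147 through the A375 K27ac columns and white in those of 501mel and SKMEL-5.

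In SKMEL-147 and A375-GFP the other groups had K27ac at the gene in a smaller share of their members. In 501mel and SKMEL-5 no group had more than 1 such gene, so the shares there do not rank the groups. Of the 7 basal and stratified keratins, none had K27ac at the gene in 501mel or SKMEL-5, 1 in SKMEL-147 and 4 in A375-GFP. The last was 57.1%, against 68.2% of all genes. KRT5, the basal type II keratin, had none in any of the 8 K27ac lists, and was open in SKMEL-147 (5.94) and A375-GFP (2.86). KRT13, a keratin of moist stratified epithelia, was acetylated at 3.90 in A375-GFP, 10.9 and 10.3 in shNTC, 5.31 with shH2 and 10.3 with shH3. Of the 9 suprabasal, sole and cornifying keratins, 1, 1, 1 and 2 were acetylated in 501mel, SKMEL-5, SKMEL-147 and A375-GFP. KRT1 had no K27ac in any list. KRT10, its partner, had folds of 4.80 in SKMEL-5, 4.69 in SKMEL-147, 5.96 in A375-GFP, 16.7 and 13.1 in shNTC, 6.56 with shH2 and 8.39 with shH3. KRT79, a keratin of the hair canal and sebaceous duct, gave the strongest K27ac region of 501mel in the windows (chr12:52826793-52828962, fold 8.09), and KRT27, an inner root sheath keratin, that of SKMEL-5 (chr17:40776662-40779998, fold 30.6). In the lists of SKMEL-147 and A375-GFP no K27ac lay at KRT27, while all 4 lines had ATAC there, with folds of 11.2, 11.8, 8.04 and 14.2. CTCF of both lines and HOXD13-HA were also called inside the SKMEL-5 region.

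The 6 stress and appendage keratins, KRT6A, KRT6B, KRT6C, KRT16, KRT17 and KRT75, had no K27ac at the gene in the 4 lines. In the silencing series KRT6B was among the stronger genes, with folds of 26.4 and 23.3 in shNTC, 10.5 with shH2 and 7.91 with shH3. A375-GFP listed no K27ac at the gene, though it listed regions on either side of it, with folds of 2.17 and 2.35. The lists of the 2 kinds of A375 cells thus differed at KRT6B. With 1 A375-GFP library of unknown depth, a difference between the cells was not tested. KRT6A was listed in 1 shNTC replicate (3.62), KRT16 in both (3.48 and 4.07), and KRT17 and KRT75 in none. KRT6A, KRT6B and KRT6C are near-identical copies, and KRT14, KRT16 and KRT17 have near-identical pseudogenes. How reads matching several places were treated is not given in the sources used here, so regions at these genes are uncertain. Of the 17 hair shaft keratins, 0, 1, 4 and 2 were acetylated in the 4 lines in the same order. By the midpoint rule, KRT86 had the highest fold of the group in each list with K27ac at a hair shaft keratin. Its folds were 14.0 in SKMEL-5, 12.1 in SKMEL-147, 6.11 in A375-GFP, 35.1 and 33.7 in shNTC, 23.6 with shH2 and 9.26 with shH3. The SKMEL-147 region of fold 26.3 reached into KRT39, but its midpoint lay 2981 bp away, so it was not counted for that gene. RefSeq draws KRT86 over 34519 bp, across KRT81, whose own highest folds were 7.93 in SKMEL-147, 5.70 in A375-GFP and 5.00 and 4.07 in shNTC.

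HOXD13-HA regions in the windows numbered 35, with 7 on chromosome 12 and 28 on chromosome 17, or 7.92 and 34.5 per Mb. Over all 3 windows this was 20.7 per Mb, against 10.9 per Mb around all protein-coding genes. The chromosome 12 window lay below that background, so the excess was on chromosome 17 alone. At least 1 region lay in the body or within 50 kb of 43 of 55 keratins (78.2%, 65.6 to 87.1%), where 60.2% of all genes had one. These were 17 of the 27 genes of chromosome 12 and 26 of the 28 of chromosome 17. In the body or within 2 kb there were 10 of 55 (18.2%, 10.2 to 30.3%), below the 30.2% of all genes. Among genes with a body of 3 to 15 kb the order was the reverse, with 10 of 48 keratins (20.8%) against 7.88%. The 10 keratins were KRT84, KRT75, KRT2, KRT27, KRT39, KRT40, KRT34, KRT36, KRT13 and KRT14, of which 5 are hair shaft genes. None of the 7 simple epithelial keratins was among them.

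The strongest HOXD13-HA region, chr12:52385377-52386290, covered the KRT84 promoter printed above, with a fold of 14.9 and a −log10 q of 54.4, and ranked 89 by fold among 29176. KRT84 is a keratin of hair and tongue. The region lay inside its RefSeq body, short of the higher-coordinate end at 52386977. No ATAC, K27ac or CTCF region of any of the other 14 lists overlapped it. The next, chr17:41602003-41603132, had a fold of 13.5 and the highest −log10 q of the 35, 103. It lay between KRT14 and KRT16, 7210 bp from KRT16, was open in the 4 lines (7.89, 4.82, 19.5 and 12.3 in 501mel, SKMEL-5, SKMEL-147 and A375-GFP) and acetylated in none. The third, chr12:52454103-52455017, had a fold of 10.3 and lay 2414 bp from KRT6B. It too was open in the 4 lines, and K27ac was listed there in SKMEL-5 (6.55), A375-GFP (2.35), shNTC (10.8 and 10.9), shH2 (3.93) and shH3 (6.68). KRT36, a hair and tongue keratin, had 3 regions within 2 kb, with folds of 9.64 (chr17:41483968-41484597), 5.94 over the promoter printed above (chr17:41489818-41490511) and 4.75 (chr17:41490884-41491456). The last 2 overlapped no other list, and the first overlapped ATAC of SKMEL-147 alone.

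Folds of the 35 ran from 2.42 to 14.9 with a median of 4.34, beside a median of 3.93 over the whole list. The weaker regions near genes already named were at KRT2 (6.33), KRT75 (5.09), KRT40 (5.39 and 2.90), KRT14 (4.60), KRT13 (4.37), KRT27 (4.03), KRT39 (3.90) and KRT34 (2.67). A region 17077 bp from KRT20 (7.85) overlapped K27ac of SKMEL-147, A375-GFP, shNTC and shH3. Another 5 regions, with folds of 2.85 to 3.64, lay on either side of KRT23. Of these, 4 lay 7394 to 12745 bp from KRT23, over SKMEL-147 K27ac with folds of 6.09 to 18.0. On the other side, 1 lay 4386 bp from KRT39, over the strongest SKMEL-147 K27ac region (26.3). At KRTAP3-1, a keratin-associated protein gene inside the window, there were 2, with folds of 3.93 and 6.98, and at KRTAP3-3 there was 1 (4.34). The remaining regions were nearest to KRT80, KRT7, KRT76, KRT10, KRT20, KRT33B, KRT31, KRT37, KRT19 and KRT9, with folds from 2.42 to 5.46.

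Most HOXD13-HA regions lay outside the open or acetylated chromatin of A375-GFP, as in the list as a whole. Of the 35, 12 overlapped A375-GFP ATAC (34.3% against 34.1% of the whole list), 7 overlapped A375-GFP K27ac (20.0% against 22.2%) and 21 overlapped neither (60.0% against 58.5%). No other list had a region at 13 (37.1% against 45.5%). ATAC of all 4 lines was present at 7, or 20.0% (10.0 to 35.9%) against 6.79%. K27ac of SKMEL-147 was present at 12, or 34.3% (20.8 to 50.8%) against 16.0%, and 5 of these were the regions on either side of KRT23 described above.

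K27ac regions found in both shNTC replicates numbered 63 in the windows, after merging. Of 77 and 76 regions in the replicates, 87.0% and 90.8% overlapped a region of the other, against 80.4 and 86.8% of the whole lists. Of the 63, 17 overlapped no region of either hairpin list and count as lost, or 27% (17.6 to 39.0%), against 37.1% of all 65337 such regions. Another 32 were in both hairpin lists, 4 in shH2 alone and 10 in shH3 alone. The hairpin lists were shorter as wholes, with 43634 and 51838 regions against 85977 and 80242. With the 4 lists cut to the same length, 3 were lost (7.32% against 16.4% of all).

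The lost regions were weaker calls than the kept ones, as in the lists as wholes. Their highest −log10 q in the shNTC lists had a median of 5.03, from 2.47 to 19.2, against a median of 23.7, from 4.14 to 369, for the 32 kept in both. Over all 24220 lost and 27591 kept regions the medians were 5.03 and 24.4. Lost regions lay in the body or within 2 kb of 7 keratins, KRT80, KRT86, KRT81, KRT10, KRT12, KRT15 and KRT16 (12.7% against 39.7% of all genes), and within 50 kb of 27 (49.1% against 70.7%). At KRT80, 2 small regions inside the gene were lost (shNTC folds of 3.90 and 3.51, and of 4.31 and 3.93), while 3 others at the gene stayed in both hairpin lists. The lost region at KRT81 and KRT86, chr12:52288286-52288902, had folds of 5.00 and 4.07, and the strong KRT86 region stayed. At KRT10 the lost region had folds of 3.05 and 2.60. KRT12, the keratin of corneal epithelium, lost the region in its body (4.72 and 4.21) and 3 more lay 6293 to 11060 bp away. The lost region with the highest shNTC folds, 9.14 and 5.88, lay 5849 bp from KRT83, and the next, 7.96 and 6.66, 3418 bp from KRT38, both hair keratins. A375-GFP K27ac overlapped 11 of the 17 lost regions (64.7%, against 52.9% of all lost regions) and 28 of the 32 kept in both (87.5% against 88.9%). HOXD13-HA overlapped none of the 17 lost (5.78% of all lost regions), 5 of the 32 kept in both (15.6% against 16.0%) and 1 of the 4 kept in shH2 alone (13.2% of all such regions).

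Gained regions, in both hairpin lists and in neither shNTC list, numbered 1 of 39 in the windows (2.56%, 0.454 to 13.2%), against 1.85% of all 31235. This region, chr17:41583907-41585080, lay in the body of KRT14, with folds of 5.57 with shH2 and 6.24 with shH3. It was the 1 keratin with a gained region in the body or within 2 kb (1.31% of all genes), and KRT9, KRT14, KRT16 and KRT17 had it within 50 kb, 4 of 55 or 7.27% against 2.99%. A375-GFP listed ATAC over it (8.40) and no K27ac, though it listed K27ac at 7.48 beside it, 1274 bp from KRT14. In the same cluster, the region at the higher-coordinate edge of KRT16 (chr17:41612416-41613263, shNTC folds of 3.48 and 4.07) was among those lost.

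**Figure D5:**
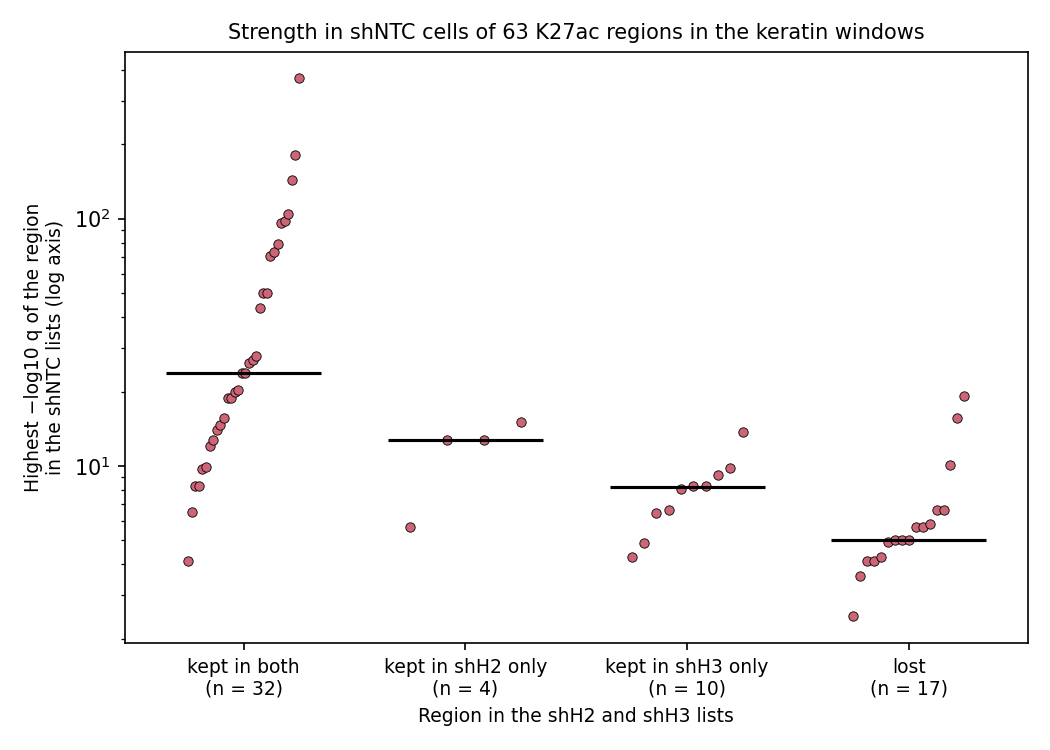
Highest −log10 q in the shNTC lists (log axis) of the 63 K27ac regions in the keratin windows, by whether the hairpin lists held the region. Points are regions and bars are medians, from 23.7 for the 32 kept in both to 5.03 for the 17 lost.

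CTCF regions in the windows numbered 43 in 501mel and 69 in SKMEL-5, or 25.4 and 40.7 per Mb against 18.3 and 22.9 around all genes. Of the 501mel regions 83.7% overlapped one in SKMEL-5, and of those in SKMEL-5 49.3% overlapped one in 501mel, against 76.9 and 58.3% of the whole lists. Near the genes themselves the order was the reverse. CTCF was in the body or within 2 kb of 6 keratins in 501mel (10.9%, 5.10 to 21.8%, against 59.4% of all genes) and 18 in SKMEL-5 (32.7%, 21.8 to 45.9%, against 66.4%). The strongest CTCF regions of both lines stood in the flanks beyond the outermost keratins. They lay on the EIF1 side of the chromosome 17 window, beyond KRT17 (56.4 in 501mel and 83.6 in SKMEL-5), on the EIF4B side beyond KRT18 (38.1 and 83.2), and 4837 bp from KRT80 (34.8 and 78.1). EIF1 and EIF4B encode translation initiation factors. Between KRT19 and KRT9, a further pair had folds of 33.7 and 45.8. None of the 43 CTCF regions of 501mel overlapped K27ac of that line (16.6% of the whole list did), and 3 of 69 did in SKMEL-5 (4.35% against 28.7%). Of the 38 places open in all 4 lines, 26 had CTCF of either line (68.4% against 68.8% of all such places) and 17 had K27ac of any line (44.7% against 65.6%).

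The lines' own markers and the genes that work with keratins were counted in the same way, body or within 2 kb. Of 10 melanocyte genes, 10 had K27ac in 501mel and in SKMEL-5, 4 in SKMEL-147 (MITF, RAB27A, SOX10 and TYRP1) and 6 in A375-GFP. PMEL, MLANA, TYR, DCT, EDNRB and SLC45A2 had none in SKMEL-147, and TYR, TYRP1, DCT and SLC45A2 had none in A375-GFP. Of 8 basal keratinocyte genes other than keratins, 1, 5, 6 and 7 were acetylated in 501mel, SKMEL-5, SKMEL-147 and A375-GFP, and TP63, the master regulator of the basal layer, in SKMEL-147 alone of the 4. Both shNTC lists held K27ac at TP63 too, and neither hairpin list did. The hairpin lists were shorter as wholes. Lost regions lay in the body or within 2 kb of 5 of these 8 genes and of 39.7% of all genes. Of 8 simple epithelium genes the counts were 2, 3, 2 and 6, and EPCAM had none in any of the 4. Of 10 cornified envelope genes the counts were 0, 0, 2 and 2. Of 16 desmosome and keratin-anchoring genes, 4, 4, 9 and 8 were acetylated, among them DSP, which links keratin to the desmosome, in all 4 lines. JUP and EVPL were acetylated in A375-GFP alone of the 4, and DSC2 and DSC3, desmosomal cadherins, in SKMEL-147 alone of the 4, though both shNTC lists also held DSC2. Of 15 other intermediate filament genes, 7, 8, 6 and 9 were acetylated, and VIM in all 4. The share of all genes was 42.1, 57.9, 43.1 and 68.2% in the same order. These gene lists were not compared with genes of like body length, and a long body collects more regions.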

How the data were processed

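Peak lists of 15 libraries were used, with hg38 coordinates. The tools were Trim Galore, Bowtie2, SAMtools, deepTools and MACS2 per the submitters' processing notes, and versions and settings are not given in the sources used here. Each list holds a score, a fold enrichment (a ratio) at the summit, and the −log10 p and −log10 q, all as the authors deposited them. The lowest −log10 q was 1.30 to 1.34 in each list. Fold and −log10 q were used within a list only, for description, ranking and cutoffs. No read counts are listed, so depth is unknown. Of the 15 lists, 5 (shNTC, both hairpins and A375-GFP ATAC) also held 92 to 387 regions on alternative copies of chromosome 12 or 17 sequence, which were left out, so a missing region in these lists is not proof of missing signal.

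The gene set was RefSeq's 19970 protein-coding entries for GRCh38.p14, without exons. A region counted for a gene when its midpoint lay in the body or within 2 kb (50 kb where stated), and lists shared a region when overlapping by 1 bp. Intervals are 95% Wilson intervals (scipy 1.17.1, Python 3.11.15). The functions that overlap, merge and count regions were checked on simulated data. Text names every keratin with HOXD13-HA or a lost region within 2 kb, a gained region within 50 kb, or K27ac within 2 kb in any of the 4 lines, 14 keratins by name, the 3 strongest regions of each library in the windows, and genes nearest to them. The keratins, lists and rules were chosen with earlier results of these data known. Windows, −log10 q cutoffs, summits, equal list lengths, overlap and left-out libraries were varied.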

Additional observations from a re-analysis of the deposited data

How the results depend on the processing

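No paired analysis was possible because every group but shNTC has 1 library, so the groups compared share fewer than 2 replicate numbers, and no result comes from a test. Keratins below genes at large in HOXD13-HA near the body, by 12.0 percentage points (-12.0), were above genes of like length by 13.0, a comparison chosen after seeing the data. With a window of 10 kb, 26 keratins were reached by HOXD13-HA instead of 43, and with 100 kb 30 K27ac regions were lost instead of 17. At a −log10 q of at least 10, there were 14 HOXD13-HA regions, 6 K27ac regions lost and 0 gained, and the windows held 1 K27ac region in 501mel instead of 15, 6 in SKMEL-5 instead of 14, 17 in SKMEL-147 instead of 80 and 29 in A375-GFP instead of 116. Acetylated keratins then numbered 9 in A375-GFP, 7 in SKMEL-147, 3 in SKMEL-5 and 1 in 501mel. Open ones numbered 20 in A375-GFP, 32 in SKMEL-147, 11 in 501mel and 6 in SKMEL-5. With lists of equal length, 3 regions were lost (7.32%) and 2 gained. Open keratins then numbered 17 in A375-GFP, 18 in SKMEL-147, 16 in SKMEL-5 and 10 in 501mel. Asking for an overlap of at least 50% of the region, 37 were lost (56.9%, against 61.9% of all). With shH2 alone 27 were lost (42.9%, against 52.2%) and 4 gained, and with shH3 alone 2 were gained. Leaving out 1 shNTC replicate gave 24 to 28 lost (31.2 to 36.8%) and 1 gained. At 5 kb, CTCF reached 13 keratins in 501mel instead of 6. The cause was not tested. In each of these settings the lost share in the windows stayed below that of all regions. All settings reuse the same libraries, so they are not separate evidence. With 100 kb the share was 34.5% against 37.1%, and the main interval, 17.6 to 39.0%, holds the 37.1% of all regions. Unknown depth limits every count.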

Other observations

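The keratin-associated protein genes, which encode the matrix of the hair shaft and in part lie inside the chromosome 17 cluster, gave 94 genes. K27ac lay in the body or within 2 kb of 4 of them in 501mel, 2 in SKMEL-5, 9 in SKMEL-147 and 2 in A375-GFP, that is 4.26, 2.13, 9.57 and 2.13%, against 42.1, 57.9, 43.1 and 68.2% of all genes. HOXD13-HA lay that near to 3 of the 94 (3.19% against 30.2%) and within 50 kb of 37, where 60.2% of all genes had one. These genes were not compared with genes of like body length. For keratins such a comparison reversed the HOXD13-HA order (20.8% against 7.88%), so the gaps to all genes here may reflect length. None of the 94 had a lost K27ac region in the body or within 2 kb (39.7% of all genes), where 2 and 3 of them had K27ac in the shNTC lists. Within 50 kb, 4 had a lost region (4.26% against 70.7%).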
